A study of Mus musculus with 12 samples.

Results

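The 10 genes described here encode the enzymes that convert cholesterol to conjugated bile acids in hepatocytes. They were chosen by name from the textbook pathway, as Cyp7a1, Cyp8b1, Cyp27a1, Cyp7b1, Hsd3b7, Akr1d1, Akr1c6, Acox2, Slc27a5 and Baat, and make up 10 of the 55450 genes in the tables. All 10 were found. mRNA was measured by RNA-Seq in primary mouse hepatocytes, with 4 groups of 3 libraries. KO hepatocytes had the genotype Cebpa{delta}Alb, in which Cre expressed from the albumin promoter had removed floxed Cebpa. WT hepatocytes carried the same floxed alleles without the deletion, labelled Cebpafl/fl. OE hepatocytes were given Ad-m-Cebpa, an adenovirus that drives mouse Cebpa, and GFP hepatocytes were given Ad-GFP, an adenovirus that drives green fluorescent protein. The study used male mice on a C57BL/6N background. The labels give neither the age of the mice nor the genotype of the cells given virus or the duration of the exposure. For other assays the study names an age and a duration and used WT hepatocytes for both viruses, without tying these to the RNA-Seq libraries. Because Cre was driven by the albumin promoter, the deletion was present in the mouse before the cells were isolated, while the virus was added to isolated cells.

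Bile acid synthesis is the main route by which the liver disposes of cholesterol. The classic pathway starts with CYP7A1, the rate-limiting enzyme, and branches at CYP8B1, whose activity sets how much cholic acid is made relative to chenodeoxycholic acid. The alternative pathway starts with CYP27A1 in mitochondria and continues through CYP7B1. Both pathways share the enzymes that modify the sterol rings, HSD3B7 and AKR1D1 followed by a reductase of the AKR1C family, and those that shorten and conjugate the side chain, ACOX2, SLC27A5 and BAAT. CEBPA is a leucine zipper transcription factor abundant in adult hepatocytes, and the comparisons ask how each of these genes stood after Cebpa was removed or supplied in excess.

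Total counts ran from 20368564 to 23304230 per library in KO, 20966339 to 23261800 in WT, 20160081 to 23193817 in OE and 20467466 to 22132226 in GFP. Cebpa (chromosome 7, 35119293 to 35121928, plus strand, mm10) stood at 0.963, 0.257 and 0.164 CPM in KO, against 309, 229 and 290.3 CPM in WT, where CPM is the share of a library's counts, expressed per 1000000 and scaled between the libraries compared. It stood at 13290, 13650 and 14080 CPM in OE, against 48.0, 50.6 and 54.3 CPM in GFP, so all 12 libraries matched their labels. The hepatocyte markers, of which 7 of 8 were found, summed to 113000 to 120500 TPM in KO, 103600 to 108000 TPM in WT, 13960 to 14350 TPM in OE and 26620 to 27340 TPM in GFP, where TPM is a level per 1000000 transcripts that is scaled for gene length. Markers of macrophages summed to 6.68 to 22.4 TPM in KO, 2.26 to 13.4 TPM in WT, 187 to 206 TPM in OE and 173 to 196 TPM in GFP. Nearly all of the sum in OE and GFP was Cd68, while the Kupffer cell gene Clec4f was listed at 0 in GFP. Markers of cholangiocytes summed to 9.25 to 18.2 TPM in KO, 2.34 to 3.89 TPM in WT, 13.4 to 15.96 TPM in OE and 154 to 186 TPM in GFP, and the GFP sum was mostly Cldn4. The sums in KO and WT were nearly all Sox9, at 8.62, 17.6 and 9.85 TPM in KO, against 2.34, 3.17 and 3.70 TPM in WT. Krt19, Krt7, Epcam and Cldn4 each stayed at or under 0.37 TPM in KO. Endothelial markers stayed at or under 14.1 TPM and stellate cell markers at or under 18.3 TPM in every library. A list of 8 inflammatory and acute phase genes summed to 9426, 14110 and 416 TPM in KO libraries 1 to 3, against 289.9, 373 and 2823 TPM in WT libraries 1 to 3, and to 4333 to 4597 TPM in OE, against 5136 to 5356 TPM in GFP. In bulk samples, fewer cells of a type and less RNA per cell cannot be told apart.

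Promoter windows from RefSeq (GRCm38.p6, 250 bases before to 50 bases after the annotated start) were found for 6 of the 10 genes, and 3 are shown. Akr1d1 was called in both of the main comparisons below, and Cyp27a1 and Hsd3b7 had the next lowest p in KO against WT and changed over 2-fold in OE against GFP. The motifs searched on both strands were TTGCNNAA (TTNNGCAA on the other strand), a loose form of the site bound by C/EBP proteins, the CCAAT box, which reads ATTGG on the other strand, and the shorter GCAAT, which reads ATTGC on the other strand. The capitals mark every match to the first pair of motifs. The windows were chr6:37529923-37530222 for Akr1d1, chr1:74713285-74713584 for Cyp27a1 and chr7:127800359-127800658 for Hsd3b7, all on the plus strand.
Akr1d1: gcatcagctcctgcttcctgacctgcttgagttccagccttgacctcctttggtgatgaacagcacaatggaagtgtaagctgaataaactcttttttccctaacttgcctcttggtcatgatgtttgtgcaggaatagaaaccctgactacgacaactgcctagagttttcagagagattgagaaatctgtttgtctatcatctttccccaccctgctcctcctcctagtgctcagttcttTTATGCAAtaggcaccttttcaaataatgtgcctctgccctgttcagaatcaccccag
Cyp27a1: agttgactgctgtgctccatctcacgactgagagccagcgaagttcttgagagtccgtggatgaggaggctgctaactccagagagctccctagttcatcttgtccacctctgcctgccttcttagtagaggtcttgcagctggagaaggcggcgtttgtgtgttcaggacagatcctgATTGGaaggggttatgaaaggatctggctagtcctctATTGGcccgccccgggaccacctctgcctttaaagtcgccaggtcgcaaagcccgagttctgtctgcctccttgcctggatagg
Hsd3b7: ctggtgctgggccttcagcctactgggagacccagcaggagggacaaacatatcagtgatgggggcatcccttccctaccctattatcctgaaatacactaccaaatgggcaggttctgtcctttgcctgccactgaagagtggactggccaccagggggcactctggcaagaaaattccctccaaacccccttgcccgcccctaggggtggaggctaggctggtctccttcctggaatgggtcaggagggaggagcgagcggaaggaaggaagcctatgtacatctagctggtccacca
The Akr1d1 window held 1 match to TTNNGCAA at position -8 relative to the start. The Cyp27a1 window held ATTGG at positions -71 and -34, and the Hsd3b7 window held none of the motifs. GCAAT was found in the Akr1d1 window at position -4, where it overlaps the TTNNGCAA match. Among the other windows, TTGCNNAA was found for Acox2, CCAAT for Acox2 and Akr1c6, and GCAAT for Acox2 and Cyp8b1. Over all 32851 windows of this length, 10.8% held TTGCNNAA or its reverse, 37.4% held CCAAT or its reverse and 26.4% held GCAAT or its reverse. These are matches of letters, not measured binding.

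In KO and WT hepatocytes, all 10 genes were well measured, and the enzymes ranged widely in abundance. On the TPM scale, which allows genes to be compared, the mean levels in WT were 589 ± 89.9 for Akr1c6, 578 ± 20.0 for Slc27a5, 471 ± 49.5 for Cyp27a1, 294 ± 26.7 for Hsd3b7, 267 ± 52.2 for Cyp7b1, 244 ± 71.4 for Cyp8b1, 229 ± 5.77 for Baat, 175 ± 10.4 for Acox2, 112 ± 26.9 for Akr1d1 and 60.5 ± 7.84 for Cyp7a1 (SD, n = 3). Akr1c6 and Slc27a5 did not differ beyond their spread, nor did neighbours among Hsd3b7, Cyp7b1, Cyp8b1 and Baat. Cyp7a1, the gene of the rate-limiting enzyme, was lowest in WT and did not overlap with Akr1d1. In KO the order was led by Slc27a5 at 543 ± 74.5 TPM, Cyp7b1 at 412 ± 62.1 TPM and Akr1c6 at 409 ± 74.3 TPM, and ended with Akr1d1 at 50.4 ± 12.5 TPM and Cyp7a1 at 31.6 ± 27.8 TPM. The 10 genes together summed to 2117 to 2649 TPM in KO, against 2822 to 3182 TPM in WT.

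The 10 genes together stood lower in the adenovirus experiment, by margins that differed widely between them. On the TPM scale, Cyp27a1 in OE, at 191, 189 and 197 TPM, was close to its lowest KO library at 213 TPM, whereas Cyp7a1 was nearly absent. That closeness depends on the scale, since TPM is not scaled between libraries as CPM is. Over all genes, the median log2 fold change of GFP against WT was 1.53 on TPM and 0.13 on counts scaled between libraries. The summed level of the 10 genes was 347 to 354 TPM in OE and 293 to 299.6 TPM in GFP. The order also differed there, with Cyp27a1 highest in OE at 193 ± 3.80 TPM, and Hsd3b7 highest in GFP at 93.1 ± 3.19 TPM (SD, n = 3). Cyp7a1, whose counts summed to 5984 over the KO libraries and 10823 over the WT libraries, had a total of 1 count over the OE libraries and 4 counts over the GFP libraries. Cyp8b1 stood at 0.17, 0.23 and 0.15 TPM in OE and at 0.61, 1.49 and 0.60 TPM in GFP, and Akr1c6, a mouse hydroxysteroid dehydrogenase of the AKR1C family, at 0.30, 1.05 and 0.23 TPM in OE and at 1.49, 2.34 and 1.44 TPM in GFP. Thus the first enzyme of the classic pathway and the cholic acid branch enzyme were near the limit of detection in both groups given virus.

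**Figure D1:**
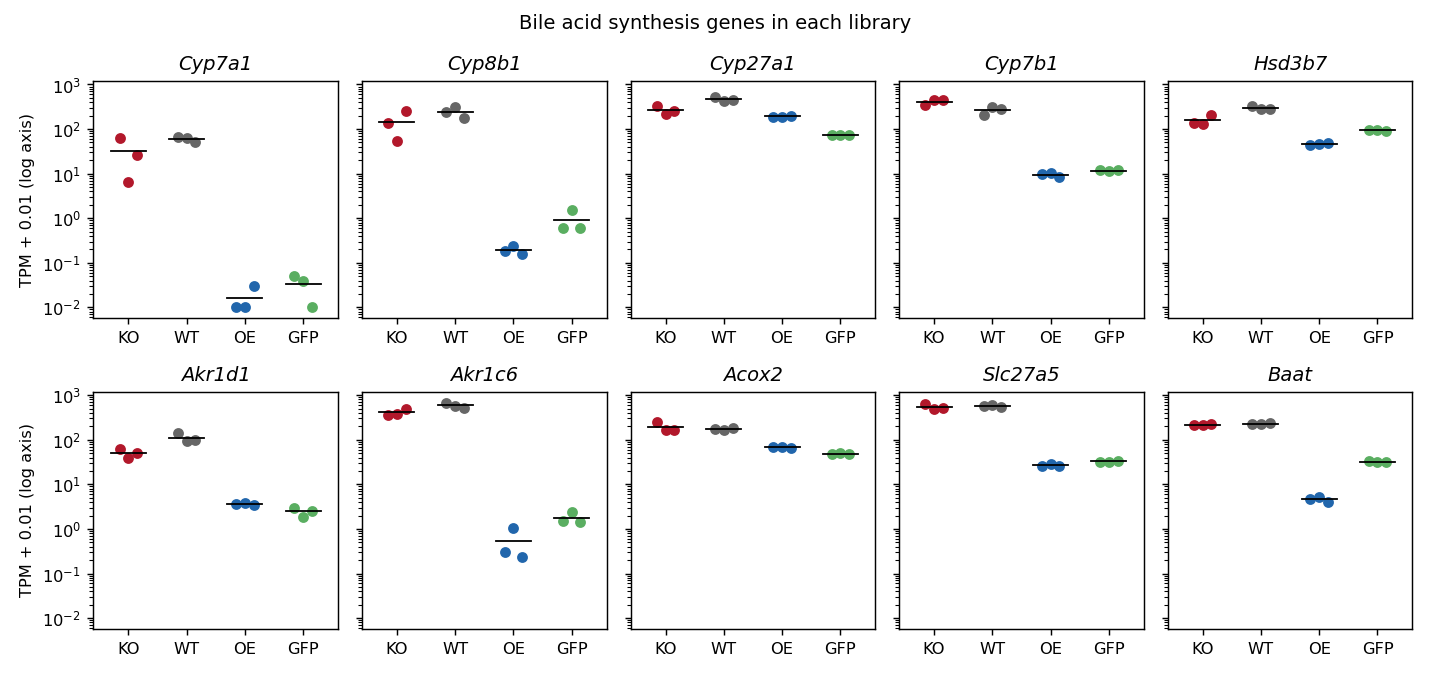
Level of each bile acid synthesis gene in each library, as TPM plus 0.01 on a log axis, with points for libraries and lines for group means (n = 3). Cyp7a1 spans 6.56 to 61.6 TPM among the KO libraries, and all 10 genes lie lower in OE and GFP than in WT.

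The GFP and WT groups were compared to place the levels of the 2 experiments side by side. Differences were tested with the quasi-likelihood F test of edgeR, with p-values adjusted over all genes tested, and genes with an adjusted p under 0.05 are referred to as called. Cyp7a1 had 2, 2 and 0 counts in GFP, against 3860, 3950 and 3013 counts in WT. It passed the filter on low counts only through WT and so had to differ, and it is left out of the counts and the median below. Its fitted log2 fold change was -12.39, and limma gave -5.90 with 1 TPM added and -8.95 with 0.1 TPM added, so the size rests on the value added. The other 9 genes were all called lower in GFP, against 38.4% of all 13760 genes tested (45% of all genes were called higher and 83.3% in either direction). No GFP library overlapped a WT library for any of the 9, and all lay lower, as 39% of all genes did, with 46.4% higher. The log2 fold change was -9.93 ± 0.18 (SE) for Akr1c6, -9.51 ± 0.40 for Cyp8b1 and -7.36 ± 0.21 for Akr1d1. It was -5.95 ± 0.19 for Cyp7b1, -5.60 ± 0.09 for Slc27a5, -4.27 ± 0.07 for Baat, -4.14 ± 0.08 for Cyp27a1, -3.29 ± 0.06 for Acox2 and -3.16 ± 0.08 for Hsd3b7, with adjusted p of 1.47e-07 or less in edgeR for each. The median over the 9 genes was -5.60, and that over all genes was 0.13. Scaling by library totals moved the median of all genes to 1.37 and the fold change of Hsd3b7 to -1.93, with the 9 genes still called lower. Virus and experiment differ together between these groups and cannot be told apart, and the hepatocyte markers summed lower in GFP, as given above. Cebpa itself was also lower in GFP than in WT (log2 fold change -3.77 ± 0.12, adjusted p = 3.14e-08, edgeR). Its mean was 31.4 TPM in GFP, 154 TPM in WT and 10300 TPM in OE. The part of Cebpa in these differences was not tested.

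Removal of Cebpa was first examined at the entry to the classic pathway. Cyp7a1 (chromosome 4, 6265612 to 6275633, minus strand) stood at 181, 16.3 and 78.5 CPM in KO, against 177, 169.7 and 129 CPM in WT. The groups overlapped, because KO library 1 was as high as WT and KO library 2 was far below every other library. The log2 fold change was -0.79 ± 0.70 with an adjusted p of 0.645 in edgeR, and it was -1.74 without KO library 1 and -0.29 without KO library 2. Cyp8b1 (chromosome 9, 121914356 to 121916305, minus strand) stood at 179.5, 74.2 and 324.5 CPM in KO, against 310.2, 426 and 220.5 CPM in WT. The groups again overlapped, and the log2 fold change of -0.73 ± 0.50 did not pass the test (adjusted p = 0.548, edgeR). It was -1.33 without KO library 3, -0.34 without KO library 2 and -0.46 without WT library 2. The 3 lowest libraries for Cyp8b1 were KO libraries 2 and 1 and WT library 3, which were also the 3 with the highest sums of inflammatory genes. That match was noticed after the values were seen, and the part of these genes in the result was not tested.

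The alternative pathway enzymes stood on opposite sides of WT. Cyp27a1 (chromosome 1, 74713574 to 74737892, plus strand), which oxidises the sterol side chain in mitochondria, stood at 379.9, 259 and 292 CPM in KO, against 581, 517 and 511 CPM in WT. Every KO library was below every WT library, and the log2 fold change was -0.79 ± 0.16, with an adjusted p of 0.0715 in edgeR that missed the threshold. Cyp7b1 (chromosome 3, 18071950 to 18243338, minus strand), the oxysterol hydroxylase of the next step, stood at 510.2, 676 and 667 CPM in KO, against 298, 467 and 404 CPM in WT. Every KO library was above every WT library, by a log2 fold change of 0.67 ± 0.20 that did not pass the test (adjusted p = 0.191, edgeR).

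Among the ring-modifying enzymes, Akr1d1 was the 1 gene of the 10 that passed the test in KO. Akr1d1 (chromosome 6, 37530173 to 37568815, plus strand), the reductase that gives bile acids their bent ring structure, fell to 103, 65.5 and 72.1 CPM in KO, against 252, 176 and 175 CPM in WT. The groups did not overlap, and the fall was 2.5-fold (log2 fold change -1.32 ± 0.22, adjusted p = 0.0382, edgeR). The call held without KO library 1 (adjusted p = 0.0374, edgeR) and was lost without any 1 of the other 5 libraries, KO library 2 or 3 or WT library 1, 2 or 3 (adjusted p = 0.0602 to 0.137). Hsd3b7 (chromosome 7, 127800604 to 127803802, plus strand), the dehydrogenase that acts before Akr1d1, stood at 152, 145 and 217 CPM in KO, against 345, 313 and 295.5 CPM in WT. These groups did not overlap either, but the log2 fold change of -0.89 ± 0.17 missed the threshold (adjusted p = 0.0639, edgeR). Akr1c6 (chromosome 13, 4434306 to 4457877, plus strand) stood at 315, 353 and 423 CPM in KO, against 584, 519 and 433 CPM in WT, with no overlap and a log2 fold change of -0.49 ± 0.16 (adjusted p = 0.237, edgeR). Akr1c6 has close paralogs, so its share of reads depends on how the quantification divided them.

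The side chain and conjugation enzymes differed by no more than 1.14-fold between KO and WT, and none passed the test. Acox2 (chromosome 14, 8225511 to 8259353, minus strand), the peroxisomal oxidase of the side chain, stood at 426, 289 and 281 CPM in KO, against 285, 288 and 301 CPM in WT. Its log2 fold change of 0.19 ± 0.17 (adjusted p = 0.656, edgeR) rested on KO library 1 and was -0.038 without it. Slc27a5 (chromosome 7, 12988346 to 12998192, minus strand), which activates bile acids with coenzyme A, stood at 931, 740.5 and 774 CPM in KO, against 835, 899 and 796 CPM in WT, with a log2 fold change of -0.05 ± 0.13 (adjusted p = 0.892, edgeR). Baat (chromosome 4, 49489422 to 49506557, minus strand), which joins bile acids to taurine or glycine, stood at 287, 288 and 291 CPM in KO, against 293, 299 and 296 CPM in WT. The values of Baat did not overlap but differed by a log2 fold change of only -0.04 ± 0.09 (adjusted p = 0.884, edgeR). The groups of Acox2 and Slc27a5 overlapped.

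In all, 1 of the 10 genes was called in KO against WT, and it was lower, against 1.71% of 11846 genes called in either direction and 1.02% called lower. DESeq2 called 4 of the 10, Cyp27a1, Cyp7b1, Hsd3b7 and Akr1d1, against 625 of the 14745 genes to which it gave an adjusted p. The median log2 fold change of the 10 genes was -0.61, and that of all genes was 0.01. KO and WT did not overlap with KO lower for 5 genes (Cyp27a1, Hsd3b7, Akr1d1, Akr1c6 and Baat), where 10.4% of all genes showed this, and with KO higher for 1 gene (Cyp7b1), where 9.66% of all genes did. Replicates in these groups varied by 20.4% (the biological coefficient of variation), and KO library 3 stood apart from KO libraries 1 and 2 in the inflammatory genes. Without KO library 3, Hsd3b7 was called (log2 fold change -1.10, adjusted p = 0.0131, edgeR) and Akr1d1 was not.

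**Figure D2:**
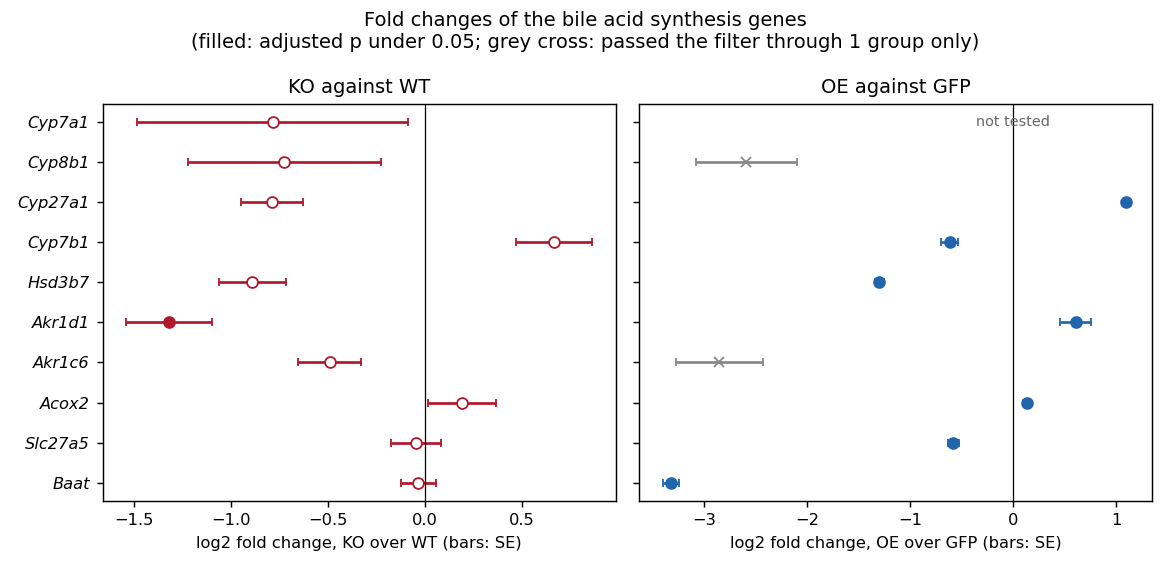
Log2 fold change of each bile acid synthesis gene, KO over WT at the left and OE over GFP at the right, with bars for the SE and filled points for an adjusted p under 0.05 in edgeR. At the left only Akr1d1 (-1.32) is filled, and at the right 7 genes are filled, from -3.32 for Baat to 1.10 for Cyp27a1, with grey crosses for Cyp8b1 and Akr1c6, which passed the low-count filter through GFP only.

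Excess Cebpa was then examined in the virus experiment. Replicates varied by 4.04% there and 86.6% of 14889 genes were called, so a call by itself does not set a gene apart and the size of each change is of more use. Cyp7a1 did not pass the low-count filter. Cyp8b1 and Akr1c6 passed it only through GFP and so had to differ, and they are left out of the counts and the median here. Of the other 7 genes, 3 were called higher (43.9% of all genes were) and 4 lower (42.7% of all genes). Their median log2 fold change was -0.58, and that of all genes was 0.01. The groups did not overlap for any of the 7 genes. For all genes, OE lay above GFP with no overlap for 44.1% and below it for 42.9%.

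At the entry to the classic pathway, Cyp7a1 had 0, 0 and 1 counts in OE, against 2, 2 and 0 counts in GFP, and was not tested. Cyp8b1 had 4, 5 and 3 counts in OE, against 15, 38 and 14 counts in GFP. Both genes were at trace levels with and without added Cebpa. In the alternative pathway, Cyp27a1 rose to 165.5, 161 and 165 CPM in OE, against 77.6, 76.6 and 75.2 CPM in GFP. This was the largest rise among the 7 genes, at 2.14-fold (log2 fold change 1.10 ± 0.03, adjusted p = 6.84e-14, edgeR). Cyp7b1 fell to 10.6, 11.1 and 9.16 CPM in OE, against 16.5, 15.1 and 15.9 CPM in GFP (log2 fold change -0.62 ± 0.08, adjusted p = 8.37e-06, edgeR).

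Of the ring-modifying enzymes, Akr1d1 rose and Hsd3b7 fell, and Akr1c6 was near the limit of detection. Akr1d1 was at 4.66, 4.85 and 4.56 CPM in OE, against 3.63, 2.54 and 3.08 CPM in GFP, a log2 fold change of 0.61 ± 0.15 (adjusted p = 0.00204, edgeR). Hsd3b7 was at 36.7, 36.1 and 36.5 CPM in OE, against 87.9, 93.7 and 86.7 CPM in GFP, a 2.46-fold fall (log2 fold change -1.30 ± 0.04, adjusted p = 5.77e-13, edgeR). Akr1c6 had 4, 7 and 1 counts in OE, against 25, 32 and 23 counts in GFP. The Akr1d1 rise of 1.52-fold left the gene far below its level in KO or WT hepatocytes, with 3.63 ± 0.25 TPM in OE (SD, n = 3), against 38.6 TPM in the lowest KO library.

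In edgeR, conjugation and side chain enzymes showed the largest and the smallest changes of the 7 genes, Baat and Acox2. Baat fell to 3.96, 4.13 and 3.43 CPM in OE, against 40.5, 36.9 and 38.2 CPM in GFP, a 9.99-fold fall (log2 fold change -3.32 ± 0.08, adjusted p = 3.10e-14, edgeR). Slc27a5, which acts just before Baat, fell to 28.2, 30.8 and 28.7 CPM in OE, against 43.6, 43.0 and 44.4 CPM in GFP (log2 fold change -0.58 ± 0.05, adjusted p = 5.94e-08, edgeR). Acox2 rose by a log2 fold change of only 0.13 ± 0.04, to 82.8, 84.0 and 79.6 CPM in OE, against 75.7, 76.7 and 72.4 CPM in GFP (adjusted p = 0.00375, edgeR). The place of Acox2 depends on the scale. With 1 TPM added, limma gave 0.45 for Acox2, -0.27 for Cyp7b1 and -0.29 for Slc27a5, so Acox2 was not the smallest there. Over all genes, the median log2 fold change of OE against GFP was 0.35 on TPM and 0.01 on counts scaled between libraries. Hepatocyte markers summed lower in OE than in GFP, although Fgb was higher (mean 399 TPM in OE, against 203.5 TPM in GFP). Stellate cell markers summed higher (16.97 to 18.3 TPM in OE, against 2.81 to 3.72 TPM in GFP). That rise lay in Reln (mean 8.98 against 1.42 TPM) and Dcn (8.24 against 1.42 TPM), while Lrat, Col1a1 and Pdgfrb overlapped between the groups. The part of these markers in the changes above was not tested.

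Whether the virus and the deletion changed each gene by different amounts was tested directly, as OE less GFP minus KO less WT on the log2 scale in a fit of all 12 libraries. The difference passed for 6 of the 10 genes, against 54.1% of 15326 genes, and was higher for 2 (25.9% of all genes) and lower for 4 (28.1% of all genes). It was higher for Akr1d1 at 1.95 ± 0.30 (adjusted p = 0.000159, edgeR) and for Cyp27a1 at 1.91 ± 0.17 (adjusted p = 2.53e-06). Akr1d1 fell in KO and rose in OE, and Cyp27a1 rose in OE, with KO below WT in every library. The difference was lower for Baat at -3.26 ± 0.11, Akr1c6 at -2.32 ± 0.43, Cyp7b1 at -1.26 ± 0.23 and Slc27a5 at -0.51 ± 0.14 (adjusted p = 0.00767 or less in edgeR). Akr1c6 passed the filter of this fit through KO and WT, and its value rests on 4, 7 and 1 counts in OE. The difference did not pass for Hsd3b7 at -0.38 ± 0.19 (adjusted p = 0.113, edgeR), which stood lower in KO than in WT and lower in OE than in GFP, or for Cyp8b1 (-1.83 ± 1.18), Cyp7a1 (-0.89 ± 3.69) and Acox2 (-0.03 ± 0.19). This fit gives both experiments 1 spread per gene, although KO and WT libraries varied more than OE and GFP libraries, so it may understate the error of the KO and WT part.

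Ratios within a library do not depend on scaling between libraries. The ratio of Cyp7b1 to Cyp27a1, the pair of alternative pathway enzymes, was chosen after the values were seen. It was 1.04, 2.06 and 1.82 in KO, against 0.395, 0.709 and 0.628 in WT, on the TPM scale. In the virus experiment it was 0.0508, 0.0542 and 0.0436 in OE, against 0.166, 0.154 and 0.161 in GFP. The ratio was higher in every KO library than in any WT library (difference 1.49 on the log2 scale) and lower in every OE library than in any GFP library (difference -1.70). Each had an exact permutation p of 0.1, two-sided, the smallest that 3 against 3 libraries can give. In both comparisons Cyp7b1 and Cyp27a1 had each separated the groups, in opposite directions. The ratio therefore had to separate them too, and this p was fixed in advance and adds nothing to the 2 genes taken singly.

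**Figure D3:**
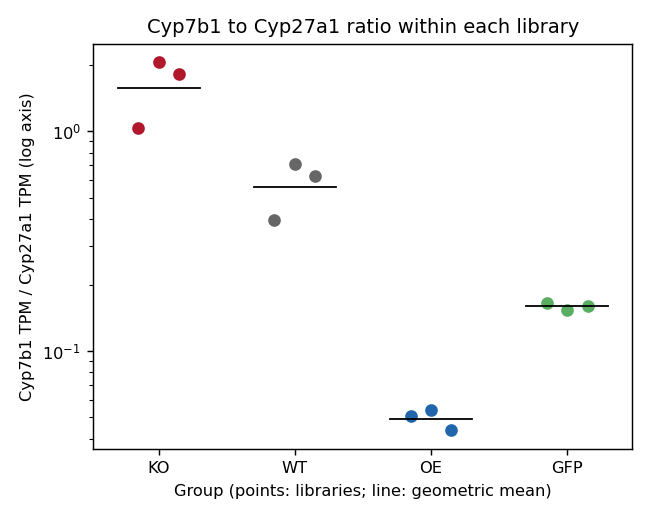
Ratio of Cyp7b1 TPM to Cyp27a1 TPM in each library on a log axis, with lines for the geometric mean of 3 libraries. The KO libraries lie at 1.04 to 2.06, above the WT libraries at 0.395 to 0.709, and the OE libraries at 0.0436 to 0.0542 lie below the GFP libraries at 0.154 to 0.166.

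The ratio of Cyp7b1 to Cyp7a1 was 5.54, 66.9 and 17.1 in KO, against 3.12, 4.90 and 5.47 in WT, with no overlap and a difference of 2.07 on the log2 scale (exact permutation p = 0.1). KO library 2, where Cyp7a1 was lowest, held the highest ratio, and the lowest KO ratio was just above the highest WT ratio. The ratio of Cyp8b1 to Cyp7a1, the branch to cholic acid, was 2.19, 8.23 and 9.34 in KO, against 3.65, 5.02 and 3.35 in WT, and the groups overlapped (difference 0.48, exact permutation p = 0.5). The ratio of Cyp27a1 to Cyp7a1 was 5.36, 32.5 and 9.39 in KO, against 7.90, 6.90 and 8.71 in WT, also with overlap (difference 0.59, exact permutation p = 0.7). The ratios to Cyp7a1 were not formed in OE and GFP, where Cyp7a1 was at or near 0 counts.

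Of 14 other genes of bile acid synthesis and peroxisomal side chain handling, 13 were tested in KO against WT, and Cyp46a1 passed the filter only through WT. Of the other 12, 1 was called by edgeR, against 1.71% of all genes. Hacl1 and Srd5a1 had an unadjusted p under 0.05 in edgeR, as did 1644 of all 11846 genes. DESeq2 called both, and it called 625 of the 14745 genes to which it gave an adjusted p. Srd5a1, a steroid reductase, fell to 49.1, 57.1 and 44.1 CPM in KO, against 85.4, 121 and 102 CPM in WT (log2 fold change -1.04 ± 0.16, adjusted p = 0.0288, edgeR). In OE against GFP, 13 were tested, and Ch25h passed the filter only through 1 group. Of the other 12, 4 were called higher and 5 lower, against 86.6% of all genes called in either direction. Cyp2c70, the mouse hydroxylase that makes muricholic acids, fell to 82.3, 73.5 and 74.0 CPM in OE, against 464, 441 and 467 CPM in GFP (log2 fold change -2.58 ± 0.04, adjusted p = 5.83e-16, edgeR). Cyp39a1, an oxysterol hydroxylase, and Srd5a1 fell with log2 fold changes of -1.49 ± 0.04 and -2.23 ± 0.09, while Pex5, the receptor that imports enzymes into peroxisomes, rose to 160.3, 162 and 163 CPM in OE, against 77.7, 72.3 and 71.2 CPM in GFP. Without the genes that passed through 1 group only, the list median was -0.13 over 12 genes in KO against WT and 0.03 over 12 genes in OE against GFP.

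Of 16 regulators of the pathway, all were tested in KO against WT and 0 were called by edgeR, against 1.71% of all genes. An unadjusted p under 0.05 in edgeR was reached by 2 (Nr1h3 and Nr1i3), and by 1644 of all 11846 genes. DESeq2 called 1 regulator (Nr1i3), and 625 of the 14745 genes to which it gave an adjusted p. In OE against GFP, 15 were tested, and Nr0b2 passed the filter only through 1 group. Of the other 14, 7 were called higher and 6 lower, a share near the 86.6% of all genes called. Hnf4a, a nuclear receptor that activates Cyp7a1 and Cyp8b1, fell to 92.2, 96.95 and 88.0 CPM in OE, against 447, 448 and 450.5 CPM in GFP (log2 fold change -2.28 ± 0.04, adjusted p = 2.86e-16, edgeR). Prox1, a repressor of Cyp7a1, rose to 228.5, 221 and 229 CPM in OE, against 71.8, 76.0 and 78.3 CPM in GFP. The receptor pair for FGF15, the intestinal hormone that represses Cyp7a1, moved in opposite directions. Klb, the coreceptor, rose to 35.9, 30.9 and 34.1 CPM in OE, against 0.497, 0.893 and 0.770 CPM in GFP (log2 fold change 5.53 ± 0.13), while Fgfr4 fell to 7.02, 7.01 and 7.10 CPM in OE, against 27.2, 31.02 and 31.4 CPM in GFP (log2 fold change -2.08 ± 0.08, adjusted p of both 3.09e-12 or less in edgeR). Klb had only 10, 19 and 15 counts in GFP, so the size of its rise rests on a reference near the low-count filter.

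**Figure D4:**
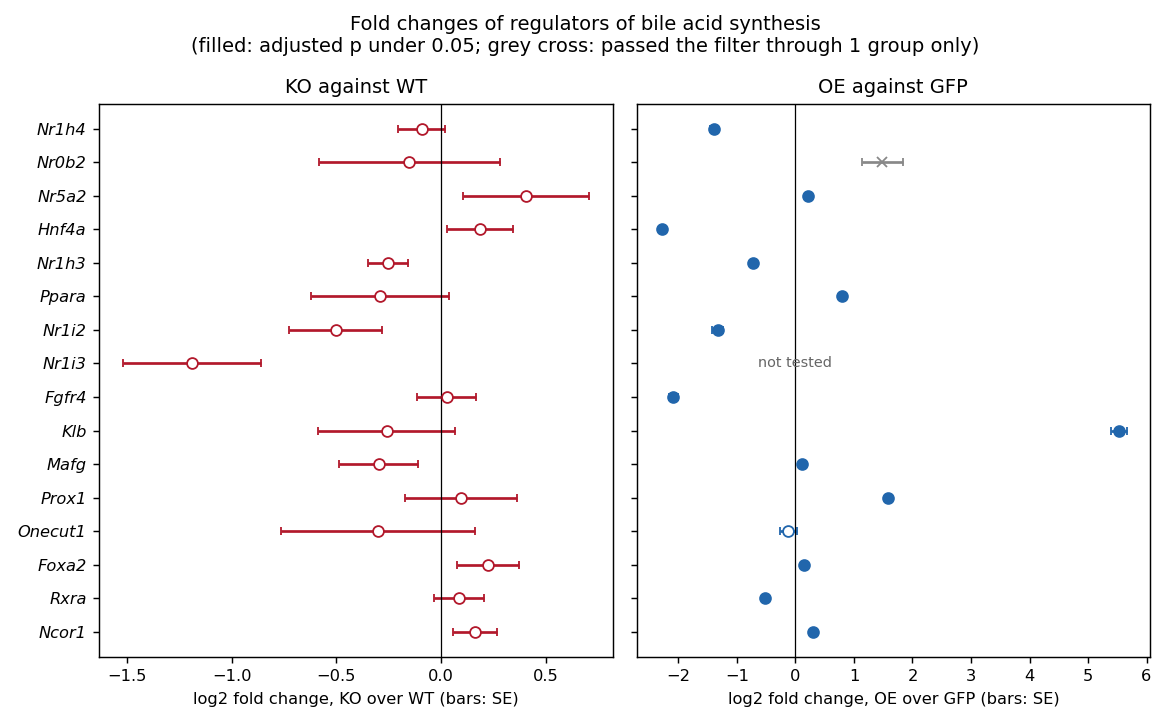
Log2 fold change of 16 regulators of bile acid synthesis, KO over WT at the left and OE over GFP at the right, with bars for the SE and filled points for an adjusted p under 0.05 in edgeR. No point is filled at the left, and at the right 13 of 14 are filled, from -2.28 for Hnf4a to 5.53 for Klb, with a grey cross for Nr0b2, which passed the low-count filter through 1 group only.

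The genes whose pattern over the 12 libraries was most like that of Cyp7a1 were Nr1i3, the nuclear receptor CAR, Cyp8b1 and Upp2, a uridine phosphorylase. Their root mean square difference from Cyp7a1 in centred log2 CPM was 0.58, 0.68 and 0.69, among 11703 other genes. For Cyp7b1 the nearest were the complement gene C8a (0.27), the carboxylesterase Ces1e (0.28) and the plasminogen gene Plg (0.30). Cyp7a1 varied within KO (16.3 to 181 CPM), but for Cyp7a1 and Cyp7b1 the gap between the 2 experiments was far larger, so these measures mostly follow that gap. In OE and GFP, Cyp7a1, Cyp8b1 and Nr1i3 lay near or under the 0.5 CPM added before logs were taken. Their likeness in those libraries therefore rests in part on the value added.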

How the data were processed

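Libraries of poly(A) RNA were made with a stranded kit. Per the labels and methods, the authors used Trimmomatic 0.36 for trimming, STAR 2.5.1 for alignment to mm10 and RSEM 1.2.22 for quantification, with Picard 1.84 and DESeq2 also named. The annotation is not given in the sources used here, and coordinates were taken from GENCODE M21 by gene identifier. The authors deposited RSEM expected counts, which are estimated counts not scaled to depth, and TPM, a value adjusted for effective gene length. The labels call the replicates biological without saying whether they came from separate mice or cultures, so p-values measure only the spread between these preparations, which may be technical.

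Expected counts were rounded, and genes were kept by filterByExpr (minimum count 10, minimum total 15) in edgeR 4.0.16 with R 4.3.3. Libraries were scaled by TMM, and each pair of groups was fitted on its own 6 libraries with the quasi-likelihood F test and Benjamini-Hochberg adjustment over all genes tested. The SE was the log2 fold change divided by the square root of F. Ratios were formed on TPM with 0.1 added. The 10 genes, the pathway lists and the markers were chosen with earlier results of these data known. Besides the 10 genes, up to 4 called genes with the lowest p per pathway list and comparison were named. Alternatives were DESeq2 1.42.0, DESeq2-type size factors or library totals in edgeR, no filter, a stricter one (at least 1 CPM in 3 libraries, mean at least 5 CPM), limma 3.58.1 on log2(TPM + 1) or log2(TPM + 0.1), 1 joint fit of the 12 libraries, the replicate number as a block, and dropping each library in turn. The pipeline was tested on simulated data. The main comparisons used all libraries.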

Additional observations from a re-analysis of the deposited data

How the results depend on the processing

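The count of bile acid synthesis genes called in KO against WT was 1 and changed most with the processing. It was 4 with DESeq2 (Cyp27a1, Cyp7b1, Hsd3b7 and Akr1d1), 3 with no filter, 0 with the stricter filter, 0 with limma on log2(TPM + 1) and log2(TPM + 0.1), 4 in the fit of all 12 libraries, and 0 to 2 when 1 library was left out. The adjusted p of Akr1d1 was 0.0599 with the stricter filter and 0.0895 and 0.0899 with limma, and ranged from 1.56e-06 to 0.137 over all alternatives. All genes called numbered 203, against 625 with DESeq2, 324 with no filter, 91 with the stricter filter, 112 and 103 with limma, 1205 in the fit of all 12 libraries and 42 to 396 with 1 library left out. Same-numbered libraries did not deviate together (correlations -0.439 to 0.01 in KO and WT), and a replicate block gave 1 called gene of the 10 and 87 of all genes.

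In OE against GFP, Cyp8b1 and Akr1c6 were again left out, because they passed the filter only through GFP. The other 7 genes kept their direction in all alternatives that tested them. They also kept their calls, except Acox2 in the fit of all 12 libraries (adjusted p = 0.352, edgeR). The stricter filter left out Cyp8b1, Akr1d1 and Akr1c6. The fitted change of Akr1c6 ranged from -3.50 without OE library 2 to -0.88 with limma on log2(TPM + 1). In GFP against WT, the 9 genes other than Cyp7a1 were called lower in every alternative. Library totals changed the calls over all genes to 10410 higher and 2074 lower, against 6186 higher and 5282 lower with TMM. In OE against GFP, limma on log2(TPM + 1) called 7100 higher and 4093 lower, against 6531 higher and 6362 lower. The difference of effects passed for 6 genes and for 6 to 8 with 1 library left out. Without KO library 2, Cyp8b1 and Hsd3b7 also passed.

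Signs turned only for small or poorly measured values. Acox2 in KO against WT was -0.038 without KO library 1 (up to 0.29 without KO library 3), and Slc27a5 was 0.019 without KO library 2 (down to -0.16 without KO library 1). The difference of effects for Acox2 was 0.14 with library totals, 0.020 with the stricter filter and 0.19 without KO library 1, and that for Cyp7a1 was 0.040 without KO library 1 (down to -2.34 without OE library 3). With 1 library left out, the log2 difference in the Cyp27a1 to Cyp7a1 ratio was -0.14 to 1.15, that of Cyp8b1 to Cyp7a1 was 0.10 to 1.14 and that of Cyp7b1 to Cyp7a1 was 1.15 to 2.94. The Cyp7b1 to Cyp27a1 difference was 1.23 to 1.79 in KO against WT and -1.76 to -1.61 in OE against GFP. With 1 TPM in place of 0.1 TPM added, every ratio difference kept its direction. The cause of these changes was not tested. Low counts limit Cyp7a1, Cyp8b1 and Akr1c6 in OE and GFP, where single libraries held 0 to 38 counts at total counts like those of KO and WT.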

Other observations

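Nr1i3, which encodes the nuclear receptor CAR and was the gene most like Cyp7a1 over the 12 libraries, was looked at after its values were seen. It stood at 170.9, 71.0 and 174 CPM in KO, against 363, 314 and 273 CPM in WT. The groups did not overlap, but the log2 fold change of -1.19 ± 0.33 did not pass the test (adjusted p = 0.166, edgeR). Among the KO libraries, library 2 was lowest for Nr1i3 as it was for Cyp7a1. The likeness of the 2 genes was measured over these same libraries, so the shared low library is no separate evidence of a link. In the virus experiment Nr1i3 stood at 0.68, 0.53 and 0.99 TPM in OE, against 0.19, 0.09 and 0.14 TPM in GFP, and it was not tested by edgeR there because its counts were too low. Cyp46a1, a cholesterol hydroxylase best known from brain, was likewise looked at after its values were seen and stood at 0.0481, 0 and 0.205 CPM in KO, against 0.733, 0.902 and 1.28 CPM in WT.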
